A study of Mus musculus with 58 samples.

Results

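BMAL1 peaks were examined at 6 mouse genes of detoxification, redox defence and bile export, namely Por, Gstm1, Gclc, Nfe2l2, Abcc2 and Abcb4. BMAL1 is a transcription factor that pairs with CLOCK to drive the activating arm of the circadian clock, and its sites had been mapped by chromatin immunoprecipitation and sequencing (ChIP-seq). The peaks were taken from the authors' liver and NIH3T3 BMAL1 lists wherever the annotated gene was 1 of the 6, together with any CLOCK peak whose centre lay within 5 kb. That choice gave 8 peaks out of 3172 in the 4 lists, of which 7 came from the liver BMAL1 list (1254 peaks), 1 from the NIH3T3 BMAL1 list (463 peaks), 0 from the liver CLOCK list (439 peaks) and 0 from the NIH3T3 CLOCK list (1016 peaks). Because the genes were chosen by the presence of a BMAL1 peak and with earlier results of these data known, everything about them is a description and no test is given.

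For liver BMAL1 the authors had reprocessed libraries from older work, sampled at zeitgeber time 6, counted in hours from lights on. The liver CLOCK list belonged to 1 sample, called pooled in its label, from C57/BL6 mice aged 12 to 14 weeks kept in a light and dark cycle with free access to food. The NIH3T3 lists came from a mouse embryonic fibroblast line whose clocks had been synchronised by 30 minutes of 100 nM dexamethasone, with 7 BMAL1 libraries (12 to 38 h) and 6 CLOCK libraries (18 to 38 h). The name of the NIH3T3 BMAL1 list gave 20 h alone. Several immunoprecipitations were pooled for a library, per the labels' protocols. The lists held positions without heights, scores or values per library, so neither replicate error nor depth could be given, and a gene missing from a list was not read as unbound. They also held no expression, so the labelled tissue and cell line could not be checked against marker genes.

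The liver clears drugs, hormones and waste in steps. Cytochrome P450 enzymes oxidise a compound with electrons passed on by the reductase encoded by Por, transferases such as the one encoded by Gstm1 attach glutathione or other groups, and pumps of the canalicular membrane such as the one encoded by Abcc2 send the conjugates into bile. Glutathione is made by glutamate-cysteine ligase, whose catalytic subunit is encoded by Gclc, and many genes of this defence are switched on by NRF2, the factor encoded by Nfe2l2, which binds antioxidant response elements together with a small MAF protein. Abcb4 moves phosphatidylcholine into bile. BMAL1 and CLOCK are known to bind E-boxes, of which CACGTG is the canonical form.

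Start-site windows of the genes are shown first, because, by the authors' distances, the Abcc2 and Gstm1 peaks lay closest to a start site among the 6 genes. RefSeq windows of assembly GRCm38.p6, from 250 bases before to 50 bases after a start site, were found for 5 of the 6 genes (6 windows, with 2 start sites 155 bp apart for Gstm1). Gclc had no window. The Abcc2 window lies at chr19:43782058-43782357 on the plus strand and the window of the more downstream Gstm1 start lies at chr3:108017769-108018068 on the minus strand, both in GRCm38.p6. Capitals mark matches, on either strand, to the general E-box CANNTG, the variant CACGTT and the core of the antioxidant response element TGACNNNGC. The general form includes CACGTG.
Abcc2: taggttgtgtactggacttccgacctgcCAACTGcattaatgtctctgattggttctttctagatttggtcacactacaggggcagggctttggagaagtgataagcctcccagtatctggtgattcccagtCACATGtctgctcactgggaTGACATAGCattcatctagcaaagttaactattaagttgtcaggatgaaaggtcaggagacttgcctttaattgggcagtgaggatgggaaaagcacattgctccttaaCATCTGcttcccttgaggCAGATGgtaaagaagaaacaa
Gstm1: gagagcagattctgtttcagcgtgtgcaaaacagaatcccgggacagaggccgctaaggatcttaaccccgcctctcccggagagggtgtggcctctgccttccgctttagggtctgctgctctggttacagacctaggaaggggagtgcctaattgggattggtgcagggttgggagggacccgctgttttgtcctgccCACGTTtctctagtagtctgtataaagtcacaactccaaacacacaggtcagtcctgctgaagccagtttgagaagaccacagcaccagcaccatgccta

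None of the 6 windows held CACGTG, which occurred in 7.15% of 32851 RefSeq windows of the same length. The Abcc2 window held 4 matches to CANNTG, all marked in capitals. A general E-box was present in 72.3% of all windows, and 4 or more in 6.49%. Counted from the RefSeq start, CAACTG covered positions -222 to -217, CACATG positions -118 to -113, CATCTG positions 12 to 17 and CAGATG positions 30 to 35. The Abcc2 window also held TGACATAGC at positions -98 to -90, a match to the antioxidant core that 12.4% of all windows contained. Gstm1 held CACGTT at positions -50 to -45 of the start shown, a form found in 4.68% of all windows, and no match in the window of its other start. Nfe2l2 held CACCTG and, overlapping it, TGACTCCGC at positions -240 to -232. Abcb4 held CAGCTG alone, and Por held none of these letters in the window of its RefSeq start. As a measure of what such windows look like where BMAL1 was mapped, 275 genes of the liver list had a peak centre within the same span around the authors' annotated start, and 224 of them had a RefSeq window. Of their 289 windows 133 (46.0%) held CACGTG, and 124 of the 224 genes (55.4%) had it in at least 1 window. Among the same 289 windows 83.0% held CANNTG, 19.0% held TGACNNNGC and 9.34% held CACGTT. Abcc2 was 1 of the 224 genes, and its window was among those without CACGTG. The peaks are given in build mm9 and the windows in GRCm38.p6, so it was not tested whether the authors' start sites and those of RefSeq are the same base. By the authors' distances, Abcc2 alone of the genes examined had a peak centre inside the window span. The sequence under the peaks was not read, so the letters describe start-site windows and not BMAL1 sites.

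Por, the electron donor of the microsomal P450 enzymes, had the most peaks of the 6 genes. Its 3 liver peaks covered chr5:136150838-136150887, chr5:136164518-136164567 and chr5:136183881-136183930 (mm9), and each was 50 bp wide. Their centres were 13680 and 19363 bp apart and spanned 33043 bp. Of 985 genes in the liver list 42 (4.26%) had 3 or more peaks, while 817 had a single peak. The authors placed the first peak 407 bp downstream of an annotated start site, the second 364 bp upstream and the third 7970 bp upstream. These distances could not refer to the same start. On the plus strand, on which Por lies in RefSeq, they implied 3 annotated start sites that were 14451 and 26969 bp apart. The 3 peaks therefore stood at separate places along the gene and not in a cluster at a single promoter. No NIH3T3 BMAL1 peak was annotated to Por, and the nearest in that list lay 344 kb from the third peak.

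**Figure D1:**
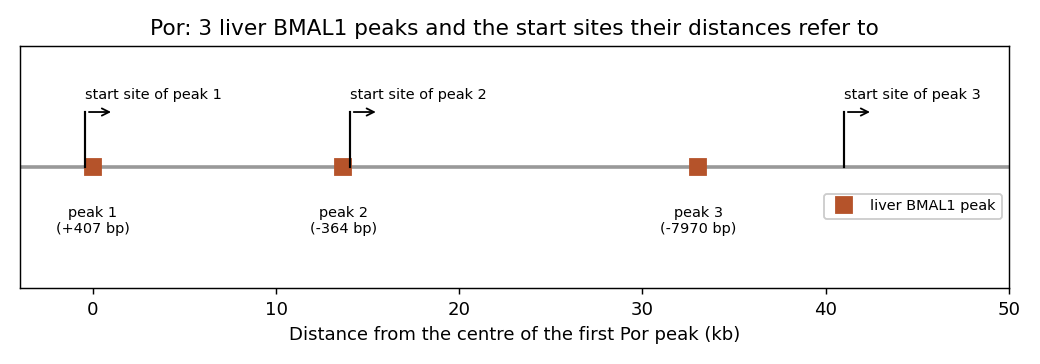
The 3 liver BMAL1 peaks of Por (squares) are drawn to scale by their distance in kb from the centre of the first, with arrows at the start sites that the authors' distances of 407, -364 and -7970 bp imply. Peaks 1 and 2 each stand close to a start site, and peak 3 stands between the second and the third.

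Gstm1 encodes a mu-class glutathione transferase. Its single liver peak was 65 bp wide, covered chr3:107820457-107820521 (mm9) and lay 236 bp downstream of the annotated start. The peak extended from 203 to 268 bp after that start, beyond the end of a window reaching 50 bp. Gstm1 stands between Gstm2 and Gstm4 in the RefSeq gene order, within a family of similar copies, and the sources used here do not say how reads that fit several copies were treated. The assignment of this peak to Gstm1 is therefore uncertain. The next liver BMAL1 peak was 69.2 kb away.

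Gclc, the catalytic subunit gene of glutathione synthesis, was the only one of the 6 genes found in the NIH3T3 list and was not in the liver list. Of the 345 genes of the NIH3T3 list, 55.9% were also liver genes, counting the genes of 263 entries that were identical in both lists. Its peak covered chr9:77598588-77598637 (mm9) and lay 3730 bp upstream of the annotated start. In NIH3T3 cells 81.6% of BMAL1 peaks lay nearer to a start site than this one. It was isolated, with the next peak of the NIH3T3 list and the nearest peak of the liver list both 2.34 Mb away. Nfe2l2, the gene of the NRF2 activator that acts on Gclc, had its peak in liver instead. This peak was 45 bp wide, covered chr2:75541824-75541868 (mm9) and lay 703 bp downstream of the annotated start. It was the only one of the 8 with a peak of another gene within 50 kb in either BMAL1 list. That neighbour, at chr2:75589108-75589157 (mm9), lay 47286 bp away on the side upstream of Nfe2l2 and was annotated to Gm13656 at -20903 bp.

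The pumps that load bile differed in the position of their peaks. Abcc2, which encodes the conjugate exporter MRP2, had a liver peak at chr19:43856676-43856725 (mm9), 18 bp downstream of the annotated start, so that the peak reached from 7 bp before to 43 bp after it. Only 5.98% of the 1254 liver peaks lay nearer to a start site. Abcb4, which encodes the phospholipid transporter MDR2, had a liver peak at chr5:8873131-8873180 (mm9), 20562 bp upstream of its start, and 79.7% of liver peaks lay nearer to theirs. In the RefSeq gene order the gene on the upstream side of Abcb4 is Abcb1b, a drug efflux pump of the same family, and Abcb1b was annotated to no peak of either BMAL1 list. The nearest other liver BMAL1 peaks were 204 kb from the Abcc2 peak and 167 kb from the Abcb4 peak.

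Across the 5 genes found in liver, 5 of 7 peaks had the annotated start site within 1 kb, 1 lay between 1 and 10 kb away and 1 lay beyond 10 kb. Over the whole liver list 560 of 1254 peaks (44.7%) lay within 1 kb, 289 between 1 and 10 kb and 405 (32.3%) beyond 10 kb. The median distance was 407 bp for the 7 peaks and 2182 bp for all 1254. Of the 5 genes, 4 had a peak within 1 kb, and Abcb4 did not. The matching share over all liver genes is not given here, and Por had 3 peaks that could meet the limit. With a limit of 200 bp the Abcc2 peak alone remained near a start. The Gstm1 peak came next at 236 bp, and 29.3% of all liver peaks lay nearer to a start than that. In direction, 4 of the 7 peaks were downstream of the start (Abcc2, Gstm1, Nfe2l2 and the first of Por), beside 570 of all liver peaks, and 3 were upstream, beside 679. The NIH3T3 peak of Gclc lay outside the 1 kb limit, within which 71.7% of NIH3T3 BMAL1 peaks lay.

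**Figure D2:**
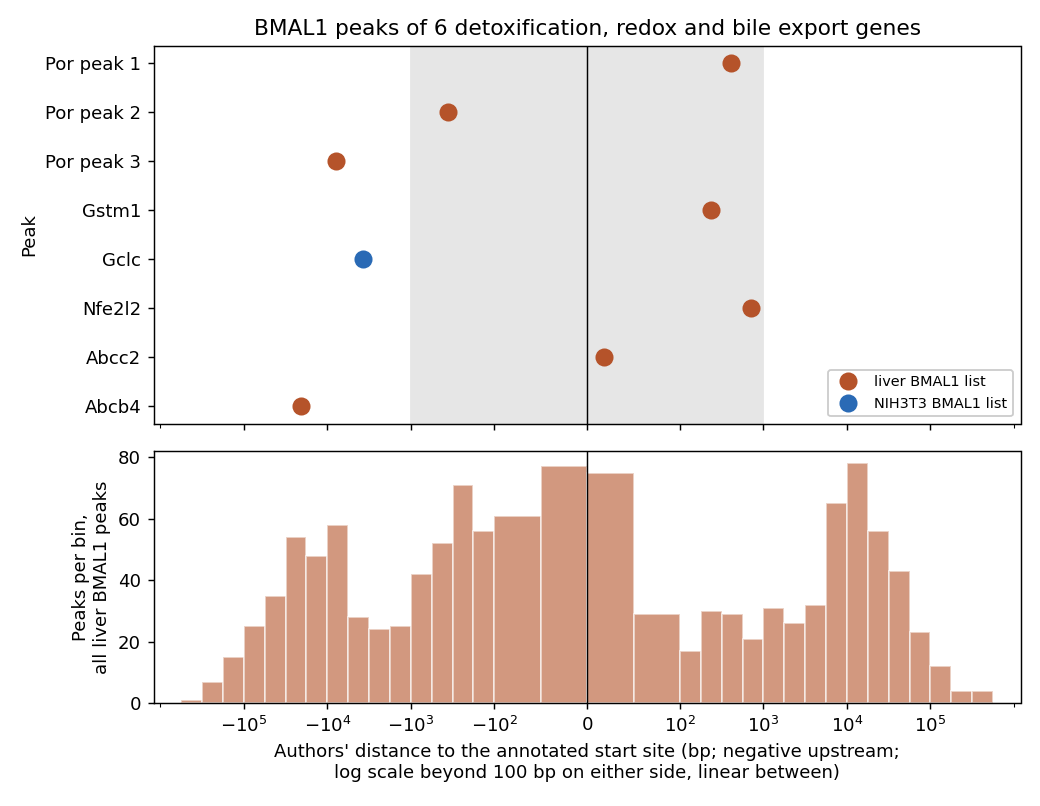
The upper panel gives the authors' signed distance in bp from each of the 8 peaks to its annotated start site, coloured by list, with the 1 kb limits shaded, and the lower panel gives the distances of all 1254 liver BMAL1 peaks in bins of unequal width. The peaks of Abcc2, Gstm1 and Nfe2l2 and peaks 1 and 2 of Por lie inside the shading, while peak 3 of Por, Gclc and Abcb4 lie upstream of it.

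The liver and fibroblast lists had no site in common at these genes. None of the 7 liver peaks had an NIH3T3 BMAL1 peak centre within 500 bp, beside 273 of all 1254 liver peaks (21.8%). The single NIH3T3 peak, at Gclc, had no liver partner, beside 274 of 463 NIH3T3 peaks (59.2%) that had one. The nearest peaks of the other list lay from 344 kb (Por) to 14.0 Mb (Abcb4) away from the liver peaks. Distances above 300 kb held for all 7, beside 63.1% of the whole liver list. That limit lay just below the smallest of these distances, and the Por peaks stood within 33043 bp of each other. The count of common sites was also 0 with limits of 200 and 1000 bp, with any overlap of intervals and with identical intervals. None of these settings could have changed it, because the nearest peak of the other list was 344 kb away. The BMAL1 lists opened with 263 identical entries, none of which was 1 of the 8 peaks. Those entries made up most of the 273 liver and 274 NIH3T3 peaks with a partner. The shares of 21.8% and 59.2% are therefore no measure for peaks outside them. Whether the assembly of the lists bears on the lack of common sites was not tested. The genes had been chosen with their presence in a single list known.

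No CLOCK peak accompanied any of the 8 BMAL1 peaks. Within 5 kb, 4.63% of liver BMAL1 peaks had a liver CLOCK peak and 6.94% had an NIH3T3 CLOCK peak, and for NIH3T3 BMAL1 peaks the shares were 10.8% and 22.9%. Counting a CLOCK peak of either context, the shares were 9.33% of liver and 25.9% of NIH3T3 BMAL1 peaks. The count for the 6 genes was also 0 at 20 kb, which could not have differed with the nearest CLOCK peak 247 kb away. Shares of all BMAL1 peaks at 20 kb are not given here. The distance from a liver BMAL1 peak to the nearest liver CLOCK peak ran from 247 kb at Nfe2l2 to 7.61 Mb at Abcb4. The nearest NIH3T3 CLOCK peaks stood from 338 kb (Abcc2) to 5.25 Mb (Gstm1) away. For Gclc the distances were 2.34 Mb to liver CLOCK and 2.06 Mb to NIH3T3 CLOCK. The 7 liver peaks had a median distance of 2.22 Mb to liver CLOCK, near the median of 2.15 Mb over all liver BMAL1 peaks, and of 847 kb to NIH3T3 CLOCK, where all liver peaks had 665 kb. Most BMAL1 peaks of either list had no CLOCK peak near. A single CLOCK list per context, the liver one from a pooled sample, does not show that CLOCK was absent.

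**Figure D3:**
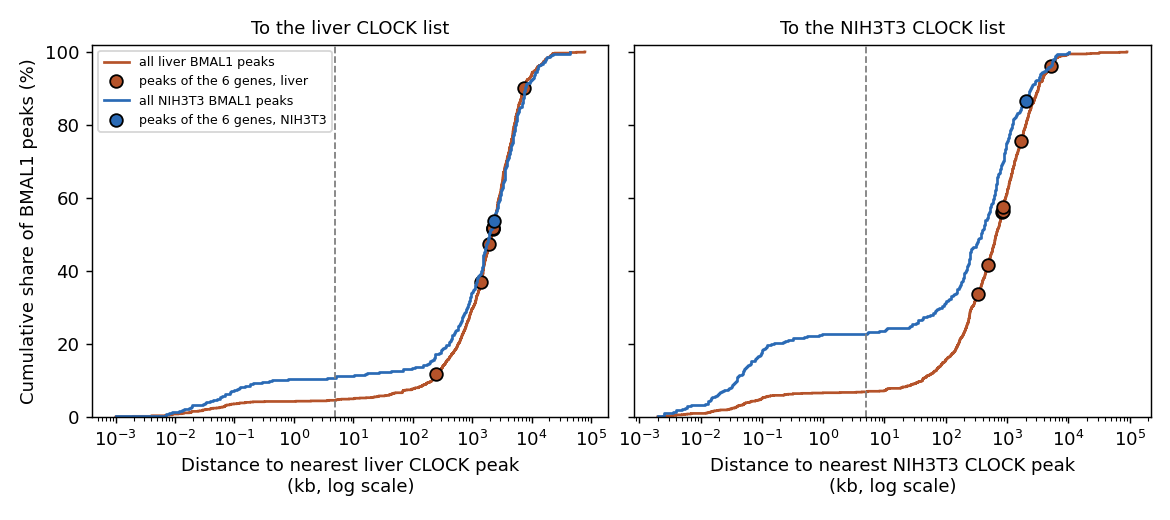
Lines give the cumulative share of all liver and all NIH3T3 BMAL1 peaks, in percent, against the distance in kb on a log axis to the nearest liver CLOCK peak (left) and NIH3T3 CLOCK peak (right), and circles give the peaks of the 6 genes. Every circle lies to the right of the dashed line at 5 kb, at 247 kb or more, and that of Gstm1, 5.25 Mb from NIH3T3 CLOCK, stands near the upper end of its line.

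The wider pathway was described with 7 lists that hold 262 genes, the 6 included. In liver 20 of the 262 (7.63%) were annotated to a BMAL1 peak and in NIH3T3 cells 2 (0.763%), beside 3.79% and 1.40% of 21900 protein-coding RefSeq genes. Without the 6 genes, 15 of 256 (5.86%) were found in liver and 1 (0.391%) in NIH3T3 cells. A single listed gene, Adh5, was in both lists. Of all liver genes 19.6% were also NIH3T3 genes, a share that includes the genes of the entries identical in both lists. Adh5 was 1 of the 15 other liver genes. The 6 genes could not add to that count, because they were chosen with their presence in a single list known. Adh5 encodes an alcohol dehydrogenase that acts on glutathione adducts. Its peak at chr3:138105697-138105771 (mm9), 324 bp upstream of the start, was the same entry in both lists and had an NIH3T3 CLOCK peak centred 29.5 bp away. This Adh5 entry was among the 263 identical entries that open both lists, and whether the lists are independent there is unknown. A second liver peak of Adh5 lay 575 bp downstream of an annotated start. That common Adh5 site gave the only 2 of the 27 listed entries with a CLOCK peak of either context within 5 kb.

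**Figure D4:**
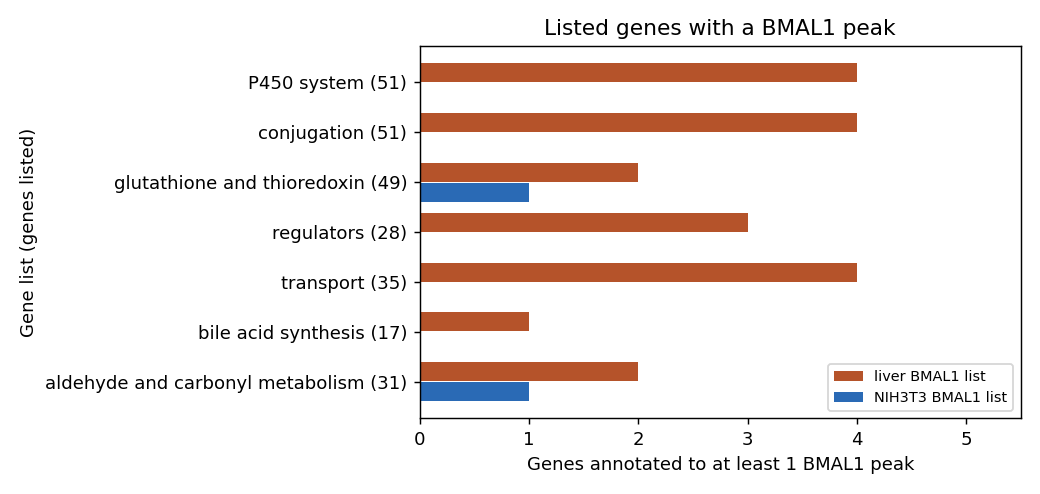
Bars give the number of genes in each of the 7 lists that were annotated to at least 1 BMAL1 peak in the liver list (upper bar of each pair) and the NIH3T3 list (lower bar), with the number of genes listed in brackets. Counts in liver run from 1 to 4 in every list, and NIH3T3 counts of 1 stand in the glutathione and thioredoxin list (Gclc) and the aldehyde and carbonyl list (Adh5). The bars include the 6 genes, which were chosen by their BMAL1 peaks.

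Beside 3.79% of protein-coding RefSeq genes, 3 of 28 regulators had a liver peak, or 2 of 27 without Nfe2l2. Besides Nfe2l2 these were Mafk, a small MAF partner of NRF2, with peaks 323 and 458 bp downstream of its start, and Bach1, a repressor that competes for the same elements, with a peak at 11148 bp downstream. Of the transporters 4 of 35 had a liver peak, among them Abcc2 and Abcb4 on the canalicular side and Slco1a1, an organic anion uptake carrier, at 13799 bp upstream. Without Abcc2 and Abcb4 the transporter count was 2 of 33. Of the P450 and other phase I genes, 4 of 51 had a liver peak, or 3 of 50 without Por. Beside Por they were Ces1e, a carboxylesterase, at 468 bp downstream, Cyp2u1, a fatty acid hydroxylase, at 9422 bp upstream, and Fmo5, a flavin monooxygenase, at 14232 bp downstream. These gene lists do not cover every P450 gene, and P450 genes outside them were also annotated to liver BMAL1 peaks.

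Conjugating enzymes had liver peaks at 4 of 51 genes (7.84%), or 3 of 50 (6.0%) without Gstm1, beside 3.79% of protein-coding RefSeq genes. Gstt2, a theta-class glutathione transferase, had its peak 681 bp upstream, and Inmt, an amine methyltransferase, had its peak 1057 bp upstream. In the glutathione and thioredoxin list liver peaks stood at 2 of 49 genes (4.08%), near the 3.79% of all protein-coding genes. The 2 genes were Tkt, transketolase of the pentose phosphate pathway, at 3184 bp upstream, and Prdx2, a peroxiredoxin, at 2496 bp downstream. Neither is a gene of glutathione synthesis, but a count near the share over all genes is no result about that pathway. Klb, the co-receptor through which FGF signals restrain bile acid synthesis, was the single gene of 17 (5.88%) in the bile acid list, with a liver peak 2273 bp downstream. Aldh1l1, a folate enzyme, completed the aldehyde list with a peak 6214 bp upstream. Of the 18 liver peaks of these 15 other genes, 6 lay within 1 kb of the start, 9 between 1 and 10 kb and 3 beyond 10 kb. Over the whole liver list the counts were 560, 289 and 405 of 1254 peaks. The 7 liver peaks of Por, Gstm1, Nfe2l2, Abcc2 and Abcb4, genes chosen by their peaks, had 5, 1 and 1, and no difference between these groups was tested.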

How the data were processed

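The authors' 4 deposited peak lists were used, in build mm9 per the submitters' processing notes, which also name Bowtie, SAMtools and bedtools without roles or versions. None of the sources used here gives the peak caller, its thresholds or which libraries were pooled for calling. The deposited lists held positions and, for BMAL1, a gene and a signed distance in bp, and the deposited columns used here held no peak score. The NIH3T3 CLOCK list held a further column, read as a gene, in which 0 entries named any of the 6. The RNA, polymerase and input samples were not analysed here. Peaks were set apart by the distance of their centres, coordinates count from 1, and intervals within 500 bp were called common. The sign of the distance was settled from neighbouring peaks of the same gene with RefSeq strands. With a tolerance of 1 bp, 110 of 162 liver pairs and 58 of 81 NIH3T3 pairs fitted positive as downstream and 0 fitted the opposite, the other pairs referring to different starts. Gene symbols were matched by symbol or unique synonym to RefSeq of GRCm38.p6, used for names, strands, gene order and windows only. Motifs were searched on both strands. The genes, the 7 lists and the motifs were chosen with earlier results of these data known. Named genes were the 6, the listed genes with a BMAL1 peak, and genes of peaks within 50 kb. A few listed genes are counted but not reported here by name. Abcb1b was named after its absence was seen. Distance counting was tested on simulated peaks planted within the 5 kb limit. That shows only whether near peaks are found, and false matches were not tested. Python 3.11.15, NumPy 2.4.6, pandas 2.3.3 and matplotlib 3.10.9 were used.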

Additional observations from a re-analysis of the deposited data

How the results depend on the processing

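Of the 8 peaks, 5 lay within 1 kb of the annotated start, 6 within 5 kb and 1 within 200 bp, so the count of peaks near a start depended on the 200 bp limit. Of all liver peaks 44.7% lay within 1 kb, and 29.3% lay nearer than the 236 bp of the Gstm1 peak. The share over the list at 5 kb is not given here. The other alternatives left their counts within 1.5 times of the value reported. These were 0 common sites under 4 definitions, 0 peaks with CLOCK at 500 bp and at 20 kb, and 8 loci when entries closer than 1 kb were joined. The counts of 0 could not have changed, because the nearest such peaks lay 247 kb or more away. Nor could the 8 loci, because the closest of the 8 peaks were 13680 bp apart. The others were 16 in place of 20 listed liver genes when peaks beyond 10 kb were left out, and 2 listed NIH3T3 genes under either setting. Matching symbols as written changed no count. A stricter part of each list could not be taken because the columns used here held no score. No paired analysis was possible because each list is a single set of peaks with no values per library.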
